A study of Mus musculus with 8 samples.

Results

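The interferon and homeostatic CXC chemokines described here are 8 genes, Cxcl9, Cxcl10, Cxcl11, Cxcl12, Cxcl13, Cxcl14, Cxcl16 and Cx3cl1, found by their symbols among the 24346 genes of each deposited table, where all 8 were present. They were measured in stromal cells of the large intestine that had been sorted alive from 8 mice aged 12 weeks as cells positive for podoplanin and free of CD45, CD31, EpCAM and 7AAD signal. The cKO group held 4 mice with floxed Il10ra alleles (Il10ra flox/flox) and a Cre recombinase under the control of Pdgfra, a gene of mesenchymal cells. The WT group held 4 mice with the same floxed alleles and no Cre, so that both groups carried the modified Il10ra locus. Each library came from a separate mouse, and the sort selected on podoplanin and not on Pdgfra or on recombination. The title of the series names the question as the effect of the interleukin-10 receptor of fibroblasts on type I interferon signalling.

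Chemokines are small secreted proteins that guide leukocytes through receptors on the leukocyte surface. CXCL9, CXCL10 and CXCL11 are made after exposure to interferon and attract activated T cells and natural killer cells that carry CXCR3. CXCL12, CXCL13 and CXCL14 are made by unstimulated tissue as well. CXCL12 holds CXCR4-positive cells near stromal cells, and CXCL13 draws B cells with CXCR5 into lymphoid follicles. CXCL16 and CX3CL1 are made as membrane proteins on a mucin-like stalk, bind CXCR6 and CX3CR1, and are released by proteases of the ADAM family. In the colon, fibroblasts below the epithelium and around vessels are a known source of several of these signals.

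Values are FPKM, fragments scaled to transcript length and to library depth, so that levels can be compared between genes per length. From the smallest steps between low values the libraries held an estimated 15085827 to 19023485 fragments. Fibroblast genes were high in every library, with the summed FPKM of 10 fibroblast markers at 19280 to 23469 in cKO and 21207 to 22184 in WT. Il10ra, the targeted gene, was low in both groups, with 0.273 to 0.636 FPKM in cKO and 0.403 to 0.842 FPKM in WT. Which exons are floxed is not stated, and a value summed over the gene is no test of the deletion. Epithelial transcripts stood apart in cKO replicate 1 and, less so, in cKO replicate 2. The summed FPKM of 18 epithelial markers was 1179 and 573 there and 149.7 and 55.6 in cKO replicates 3 and 4, against 69.0 to 149.7 in WT. Epcam itself was at 34.7 FPKM in cKO replicate 1 and at 1.27 to 11.6 FPKM in the other cKO libraries, against 2.72 to 4.02 FPKM in WT. Ptprc, which encodes CD45, was at 1.99 to 4.15 FPKM in cKO and 2.49 to 3.98 FPKM in WT, and Pecam1, which encodes CD31, at 0.968 to 2.37 FPKM in cKO and 0.594 to 0.990 FPKM in WT.

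The 8 chemokine genes spanned from among the most abundant genes of these cells to the limit of detection, and their order was nearly the same in all 8 libraries. Cxcl12 was the highest with a mean over all libraries of 377 FPKM, followed by Cxcl10 at 119 FPKM. Cxcl13 at 17.95 and Cxcl16 at 15.3 FPKM came next, then Cxcl14 at 7.82 and Cx3cl1 at 3.57 FPKM. Cxcl9 at 0.361 FPKM and Cxcl11 at 0.0345 FPKM were the lowest. Cxcl13 and Cxcl16 were the only neighbours in this order whose ranges over libraries overlapped, with Cxcl13 above Cxcl16 in 4 of 8 libraries. The gap between Cxcl9 and Cxcl11 was narrow, since the lowest Cxcl9 value was 0.157 FPKM and the highest Cxcl11 value 0.155 FPKM. Of all genes ranked by FPKM, Cxcl12 stood between places 163 and 232 and Cxcl10 between places 597 and 846. Cxcl12 took 69.6% ± 3.55 of the summed FPKM of the 8 genes in cKO and 69.6% ± 3.43 in WT (SD, n = 4 each). Cxcl10 took 22.2% ± 2.61 in cKO and 21.9% ± 3.60 in WT.

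**Figure D1:**
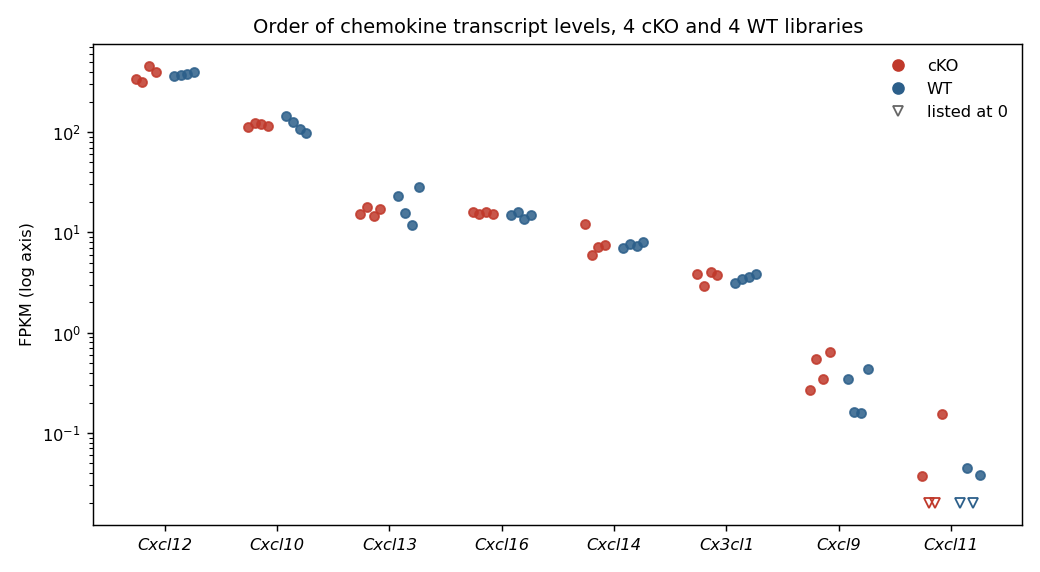
FPKM on a log axis of the 8 chemokine genes, sorted by their mean, with 1 point for each of the 4 cKO and 4 WT libraries and open triangles for values listed at 0. Cxcl12 is at 318 FPKM or more in every library and Cxcl9 and Cxcl11 lie below 1 FPKM in every library.

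None of the chemokine genes differed between cKO and WT by the test used. Mean FPKM reached 1 in 6 of the 8 genes, of which 0 had an adjusted p under 0.05 in limma over all 11506 genes tested, where 0.00869% were called. At an unadjusted p under 0.05 the count was also 0 of 6, against 5.41% of all genes tested. The median log2 difference of the 6 was 0.03, against -0.0065 over all genes tested. Cxcl9 and Cxcl11 lay under the minimum and were read from the limma fit with no filter, which called 2 of 24346 genes, neither of them a chemokine. In all 8 genes the values of cKO and WT libraries overlapped. The libraries of the groups did not overlap in 3.26% of the genes tested, with cKO above WT in 1.36% and below it in 1.9%. In bulk libraries such as these, fewer cells of a type and less RNA per cell cannot be told apart.

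**Figure D2:**
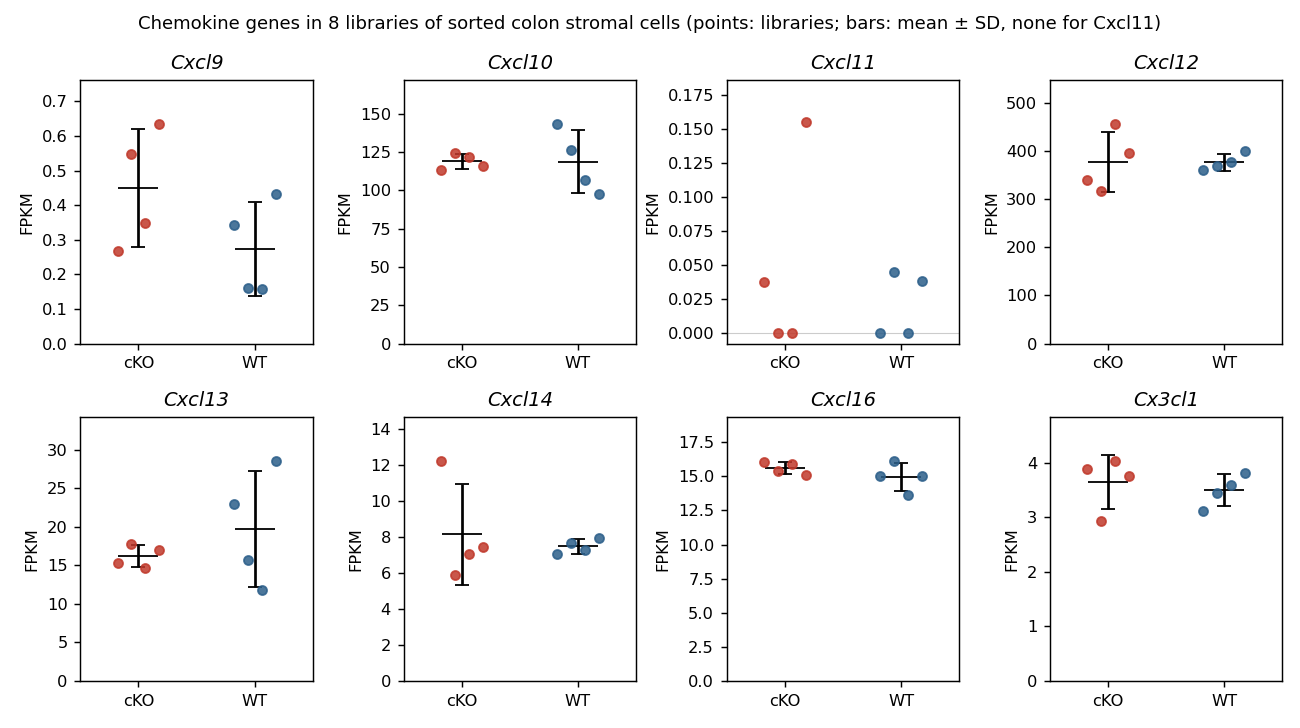
FPKM of each chemokine gene in every library, cKO left and WT right, with points for libraries and bars for the mean and SD of 4 libraries (none for Cxcl11, which is listed at 0 in 4 libraries). The groups overlap in every panel, Cxcl10 and Cxcl13 are more spread among WT libraries, and Cxcl12 and Cxcl14 are more spread among cKO libraries.

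Cxcl10, which both type I and type II interferon induce, was the highest CXCR3 ligand gene by a wide margin and had nearly equal means in cKO and WT. It had 113, 124, 122 and 116 FPKM in cKO replicates 1 to 4, against 143, 126, 107 and 97.8 FPKM in WT replicates 1 to 4. The 4 cKO values fell within the range of the WT values. The means were 118.8 ± 4.94 FPKM in cKO and 118.6 ± 20.4 FPKM in WT (SD, n = 4 each). The log2 difference was 0.017 (SE 0.11) with a 95% interval of -0.22 to 0.25, which stands for a 0.859-fold to 1.19-fold level in cKO on the scale of FPKM + 1 (limma adjusted p = 0.994). Its sign turned without cKO replicate 2 (-0.0042), WT replicate 3 (-0.028) or WT replicate 4 (-0.070). Irf1, an interferon-induced transcription factor gene, had 332, 310.0, 309 and 312 FPKM in cKO replicates 1 to 4, against 394, 344, 302 and 293 FPKM in WT replicates 1 to 4. In WT, the library with the most Cxcl10 also had the most Irf1 and the library with the least Cxcl10 the least Irf1, whereas in cKO replicate 1 had the least Cxcl10 and the most Irf1.

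Cxcl9, a CXCR3 ligand gene known to depend mainly on interferon-gamma, was close to the limit of detection although it is a neighbour of Cxcl10. It had 0.267, 0.547, 0.349 and 0.635 FPKM in cKO replicates 1 to 4, against 0.342, 0.162, 0.157 and 0.431 FPKM in WT replicates 1 to 4. On the scale of whole fragments these values stood for 14, 28, 19 and 32 fragments in cKO and 17, 7, 8 and 22 fragments in WT, each within 0.00024 of a whole number. The highest values were in cKO replicates 2 and 4, and the groups overlapped. The means were 0.449 ± 0.171 FPKM in cKO and 0.273 ± 0.136 FPKM in WT (SD, n = 4 each). The log2 difference was 0.19 (SE 0.11, 95% interval -0.075 to 0.45, limma adjusted p = 1), and it was 0.58 with a pseudocount of 0.1 in place of 1. Permuted over all arrangements of the libraries, the difference had a two-sided exact p = 0.143. With 4 against 4 libraries the smallest two-sided exact p is 0.0286.

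Cxcl11, the third CXCR3 ligand gene, was barely detected. Its values stood for 1, 0, 0 and 4 fragments in cKO replicates 1 to 4 and for 0, 1, 0 and 1 fragments in WT replicates 1 to 4. A library with 0 fragments allows up to 3 fragments, or 0.107 to 0.136 FPKM for this gene, counting error only. Only cKO replicate 4, at 0.155 FPKM, was above that limit, so that no difference between the groups was detectable at this depth (two-sided exact permutation p = 0.886). The fitted log2 difference of 0.036 rests on that library and was -0.012 without it.

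The CXCR3 ligand genes lie next to each other on chromosome 5 of mm10 in the GENCODE annotation, all on the minus strand. Cxcl9 (92321347 to 92328079) and Cxcl10 (92346638 to 92348889) are 18.6 kb apart, and Cxcl10 and Cxcl11 (92359544 to 92365485) 10.7 kb apart. Cxcl13 (95956951 to 95961068, plus strand) is on the same chromosome but 3591 kb away. The 250 bases before the annotated start of 4 of the genes are shown from RefSeq (GRCm38.p6), 5′ to 3′ on the gene's strand, because the neighbours Cxcl10 and Cxcl9 differ so widely in level and Cxcl12 and Cxcl14 are expressed without interferon.
Cxcl10 (chr5:92348890-92349139, minus strand): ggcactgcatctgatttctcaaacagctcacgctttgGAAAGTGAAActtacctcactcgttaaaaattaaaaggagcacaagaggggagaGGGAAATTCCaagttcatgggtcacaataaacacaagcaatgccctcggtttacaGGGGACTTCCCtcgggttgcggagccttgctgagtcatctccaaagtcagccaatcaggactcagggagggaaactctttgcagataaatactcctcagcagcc
Cxcl9 (chr5:92328080-92328329, minus strand): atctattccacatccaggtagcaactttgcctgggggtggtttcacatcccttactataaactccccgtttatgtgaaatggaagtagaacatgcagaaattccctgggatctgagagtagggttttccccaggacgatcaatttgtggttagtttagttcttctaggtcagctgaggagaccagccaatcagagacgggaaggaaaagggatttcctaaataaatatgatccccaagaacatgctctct
Cxcl14 (chr13:56296552-56296801, minus strand): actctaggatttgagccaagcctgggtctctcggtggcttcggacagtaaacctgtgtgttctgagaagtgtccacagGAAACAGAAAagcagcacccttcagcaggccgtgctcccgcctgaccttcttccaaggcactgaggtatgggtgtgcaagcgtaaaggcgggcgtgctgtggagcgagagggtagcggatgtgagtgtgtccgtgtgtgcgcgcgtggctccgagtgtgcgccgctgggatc
Cxcl12 (chr6:117168285-117168534, plus strand): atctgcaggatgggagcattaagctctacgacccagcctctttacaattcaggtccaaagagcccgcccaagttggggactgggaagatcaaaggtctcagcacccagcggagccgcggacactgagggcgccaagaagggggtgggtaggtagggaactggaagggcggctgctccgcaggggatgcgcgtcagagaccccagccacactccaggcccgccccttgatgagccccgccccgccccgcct
Capitals mark matches to an interferon-stimulated response element (a pair of TTTC parted by any 2 bases) or an NF-kB motif, searched on both strands.

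The Cxcl10 window holds 1 match to the interferon-stimulated response element, 213 to 204 bases before the start, and matches to the NF-kB motif at 159 to 150 bases and, overlapping each other, between 104 and 94 bases before it. Cxcl14 holds 1 match to the interferon-stimulated response element, 172 to 163 bases before its start. The windows of Cxcl9, Cxcl12, Cxcl13 and Cx3cl1 hold neither motif. Over 32851 promoter windows of this length, 2.98% hold the interferon-stimulated response element and 7.25% the NF-kB motif. The promoter table matched 6 of the 8 genes, and Cxcl11 and Cxcl16 were not searched. These are matches of letters and not measured sites.

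Cxcl12, the gene of the constitutive ligand of CXCR4, was the most abundant of the 8 and had the same mean in both groups. On chromosome 6 (117168535 to 117181367, plus strand), it had 340, 318, 457 and 396 FPKM in cKO replicates 1 to 4, against 360.4, 370, 377 and 400.4 FPKM in WT replicates 1 to 4. The highest and the lowest value were both in cKO, and the 4 WT values lay between them. The means were 378 ± 62.3 FPKM in cKO and 377 ± 17.1 FPKM in WT (SD, n = 4 each), and the log2 difference was -0.0096 (SE 0.10, 95% interval -0.24 to 0.22, limma adjusted p = 0.995). The sign of this small difference was not fixed, since it was positive without cKO replicate 1 (0.036), cKO replicate 2 (0.069) or WT replicate 4 (0.020).

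Cxcl13, the B cell attractant of follicular stroma, had the widest interval of the 8. It had 15.3, 17.8, 14.6 and 17.04 FPKM in cKO replicates 1 to 4, against 22.9, 15.7, 11.7 and 28.5 FPKM in WT replicates 1 to 4. The highest and the lowest value were both in WT, in replicates 4 and 3. The means were 16.2 ± 1.46 FPKM in cKO and 19.7 ± 7.48 FPKM in WT (SD, n = 4 each), with a log2 difference of -0.20 (SE 0.22, 95% interval -0.70 to 0.30, limma adjusted p = 0.953). The mean difference depended on WT replicates 3 and 4, being -0.41 without the third and -0.0049 without the fourth. Cxcr5, its receptor on B cells, had 1.71, 1.05, 0.822 and 2.65 FPKM in cKO replicates 1 to 4, against 2.70, 1.27, 1.23 and 1.58 FPKM in WT replicates 1 to 4. The library with the most Cxcl13, WT replicate 4, had 1.58 FPKM of Cxcr5. The library next to it in Cxcl13, WT replicate 1, had the most Cxcr5 of all. Among cKO libraries, replicate 2 had the most Cxcl13 and replicate 4 the most Cxcr5. Whether Cxcl13 and Cxcr5 ran together was not tested.

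Cxcl14, a chemokine gene also known from epithelia, was even across WT libraries and high in a single cKO library. On chromosome 13 (56288643 to 56296551, minus strand), it had 12.2, 5.88, 7.08 and 7.43 FPKM in cKO replicates 1 to 4, against 7.05, 7.66, 7.26 and 7.96 FPKM in WT replicates 1 to 4. The cKO value outside the others came from replicate 1, the library with the highest epithelial sum, while replicate 2, second in that sum, had the lowest Cxcl14. The summed FPKM of 10 markers of subepithelial fibroblasts was also highest in cKO replicate 1 (302, against 235 to 273 in the other cKO libraries and 237 to 278 in WT). Most of this sum was 1 gene, F3, at 190 FPKM in cKO replicate 1. F3 was at 136 to 164 FPKM in the other cKO libraries and at 158 to 170 FPKM in WT. The sum therefore says little of the other subepithelial markers. The part of epithelial or subepithelial cells in the Cxcl14 value was not tested. The means were 8.15 ± 2.79 FPKM in cKO and 7.48 ± 0.404 FPKM in WT (SD, n = 4 each), and the log2 difference was 0.066 (SE 0.17, 95% interval -0.31 to 0.45, limma adjusted p = 0.985). Without cKO replicate 1 it was -0.13, and with the epithelial level as a covariate -0.072.

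The genes of the membrane-bound ligands were near level in the 2 groups. Cxcl16 (chromosome 11, 70453983 to 70459984, minus strand) had 16.1, 15.4, 15.9 and 15.1 FPKM in cKO replicates 1 to 4, against 15.04, 16.1, 13.7 and 15.03 FPKM in WT replicates 1 to 4. The groups overlapped almost wholly, with means of 15.6 ± 0.461 FPKM in cKO and 14.96 ± 1.01 FPKM in WT (SD, n = 4 each). The log2 difference of 0.060 (SE 0.062) had the narrowest interval of the 6 genes tested, -0.079 to 0.20, or a 0.947-fold to 1.15-fold level in cKO (limma adjusted p = 0.948). Cx3cl1, the gene of fractalkine (chromosome 8, 94772009 to 94782427, plus strand), had 3.88, 2.92, 4.03 and 3.76 FPKM in cKO replicates 1 to 4, against 3.12, 3.44, 3.60 and 3.82 FPKM in WT replicates 1 to 4. Both the highest and the lowest value were in cKO, and the log2 difference was 0.044 (SE 0.10, 95% interval -0.18 to 0.27, limma adjusted p = 0.983).

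**Figure D3:**
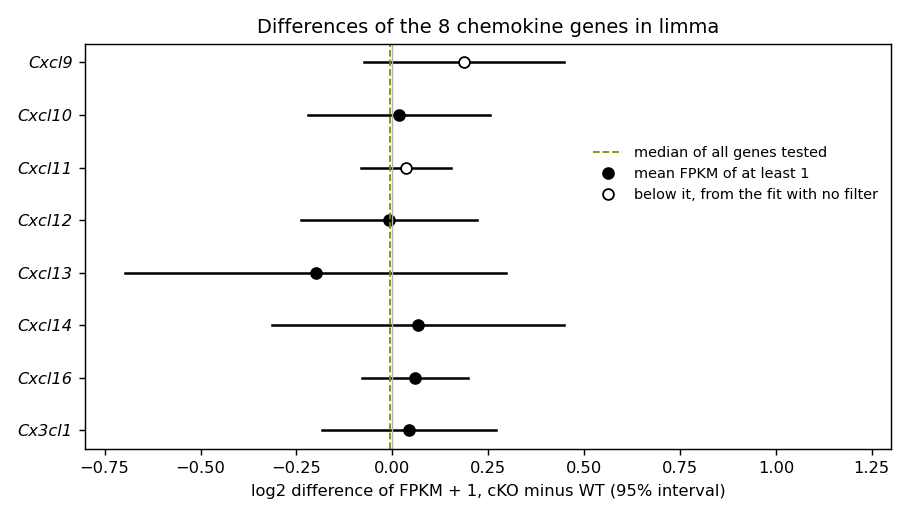
Log2 difference of FPKM + 1, cKO minus WT, for the 8 chemokine genes with 95% intervals from limma, where filled points passed the minimum mean FPKM of 1, open points are from the fit with no filter, and the dashed line is the median of all genes tested. Every interval includes 0, and that of Cxcl13 is the widest, from -0.70 to 0.30.

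Transcripts of the receptors of these chemokines were low. Of Cxcr3, Cxcr4, Cxcr5, Cxcr6 and Cx3cr1, only Cxcr5 reached a mean of 1 FPKM. Cxcr3 stood for 3, 5, 4 and 2 fragments in cKO replicates 1 to 4 and for 10, 2, 4 and 1 fragments in WT replicates 1 to 4, and Cx3cr1 for 62 fragments over the cKO libraries and 38 over the WT libraries. Cxcr4 stood for 72 fragments in cKO and 56 in WT.

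The atypical chemokine receptors, which remove chemokines from tissue without classical signalling, were abundant. Ackr3, a scavenger of CXCL12 and CXCL11, had 362, 346, 361 and 371 FPKM in cKO replicates 1 to 4, against 328, 409.6, 339 and 419 FPKM in WT replicates 1 to 4. The groups overlapped, and the cKO values lay within the range of the WT values. Ackr4, a scavenger of homeostatic CC chemokines, had means of 215 ± 24.4 FPKM in cKO and 249.7 ± 5.95 FPKM in WT (SD, n = 4 each), and Ackr2 16.6 ± 3.27 FPKM in cKO and 18.2 ± 1.53 FPKM in WT. Of the 4 genes of this group 0 passed over all genes in limma, with 1 of them, Ackr4, lower at an unadjusted p under 0.05 (log2 difference -0.22, SE 0.074, adjusted p = 0.897), against 3.03% of all genes tested.

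Of 6 proteases that cut these chemokines, 5 were tested and 0 passed. Dpp4, which trims the amino end of CXCR3 ligands and CXCL12, had 29.4, 36.7, 30.9 and 36.5 FPKM in cKO replicates 1 to 4, against 40.7, 47.0, 38.2 and 41.2 FPKM in WT replicates 1 to 4. All 4 cKO values were below all 4 WT values, which held for 1.9% of the genes tested, and the log2 difference was -0.32 (SE 0.089, limma adjusted p = 0.897). Dpp4 is also a marker of adventitial fibroblasts, of whose 10 markers 4 were lower at an unadjusted p under 0.05, against 3.03% of all genes tested, and 0 passed after adjustment. The sheddases of CX3CL1 and CXCL16 were near level, with Adam10 at 15.2 ± 2.27 FPKM in cKO and 15.1 ± 0.439 FPKM in WT and Adam17 at 30.1 ± 3.14 FPKM in cKO and 30.3 ± 2.43 FPKM in WT (SD, n = 4 each). Mmp2 and Mmp14 differed by -0.053 and 0.021 on the log2 scale.

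Genes upstream of the CXCR3 ligands did not pass in either direction, which does not show that their levels were equal. Of 18 genes of interferon receptors and signalling 0 passed in limma, 0 had an unadjusted p under 0.05, and the median log2 difference was 0.01, against -0.0065 over all genes tested. Ifngr1, a chain of the interferon-gamma receptor, was at 121 to 141 FPKM in cKO and 121 to 134 FPKM in WT. Of the 18 genes, 9 had a higher mean in cKO. Stat2 was at 14.2 ± 0.887 FPKM in cKO and 12.4 ± 1.39 FPKM in WT (SD, n = 4 each). Its log2 difference was 0.19, with a 95% interval of -0.00087 to 0.38. Rela, an NF-kB subunit gene, was at 89.4 ± 10.3 FPKM in cKO and 100.8 ± 9.31 FPKM in WT (SD, n = 4 each). The log2 difference of Rela was -0.17, with a 95% interval of -0.38 to 0.029. The interferon genes themselves were at the limit of detection, with 4 Ifng fragments in all cKO libraries and 2 in all WT libraries, and 1 Ifnb1 fragment in cKO and 4 in WT.

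Other interferon-gamma-induced genes had higher means in cKO in the same libraries in which Cxcl10 was level. Of 22 such genes 18 were tested, and 17 of them had a higher mean in cKO, against 47.4% of all genes tested. The median log2 difference of the 18 was 0.23, against -0.0065 over all genes tested. In limma 0 passed over all genes and 7 were higher at an unadjusted p under 0.05, against 2.37% of all genes tested. The list was chosen with earlier results of these data known. The counts and shares given here for its genes are therefore a description and not a test. Igtp, an interferon-inducible GTPase gene, had 16.1, 27.0, 24.2 and 28.1 FPKM in cKO replicates 1 to 4, against 14.3, 12.8, 14.7 and 14.6 FPKM in WT replicates 1 to 4. The log2 difference of Igtp was 0.69 (SE 0.15) and did not pass (limma adjusted p = 0.761). Without cKO replicate 1, the lowest of the cKO libraries, it was 0.86 and passed (limma adjusted p = 0.00725). Leaving out the lowest cKO value raises the difference by itself, so this pass is no separate support. Igtp passed under no other alternative. All 4 cKO values of Igtp were above the WT values, as they were for B2m, Psmb9, Tap1 and Cd274, against 1.36% of the genes tested. B2m, which encodes the small subunit of MHC class I, differed by 0.40 (SE 0.086, limma adjusted p = 0.761), and the immunoproteasome gene Psmb9 by 0.45 (SE 0.11, limma adjusted p = 0.897). Icam1, an adhesion gene that NF-kB also drives, was the only one of the 18 with a lower mean in cKO (261 ± 8.78 FPKM in cKO and 302 ± 44.6 FPKM in WT, SD, n = 4 each). In Cxcl10 and Icam1 WT values were more spread than cKO values. This was not particular to them, since it held for Psmb9 too (SD 1.41 FPKM in cKO and 2.41 FPKM in WT). In other genes of the list, among them Igtp and B2m, cKO values were more spread. Whether Cxcl10 differed from these genes in its response was not tested.

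**Figure D4:**
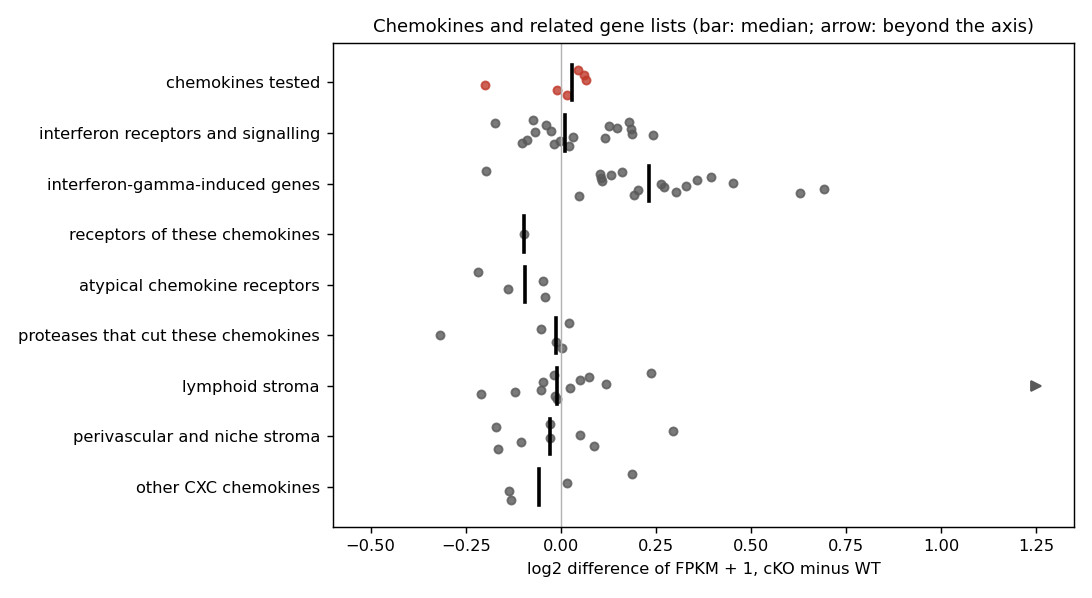
Log2 differences, cKO minus WT, of the 6 chemokine genes tested (top) and of the tested genes of 8 related lists, with a bar at each median and an arrow for Ccl21a, which lies beyond the axis at 2.48. The interferon-gamma-induced genes have a median of 0.23, and the medians of the chemokine genes and of the other lists lie between -0.10 and 0.03.

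Genes of lymphoid stroma, the setting in which Cxcl13 is best known, did not pass. Of 18 genes 13 were tested and 1 was higher at an unadjusted p under 0.05, against 2.37% of all genes tested. This was Ccl21a, with 11.9, 4.81, 7.20 and 7.63 FPKM in cKO replicates 1 to 4, against 4.49 FPKM in WT replicate 3 and less than 0.002 FPKM in the other WT libraries. Its cKO values were all above the WT values, as in 1.36% of the genes tested. Its log2 difference of 2.48 did not pass (limma adjusted p = 0.761). Without WT replicate 3, the highest WT library, it was 3.09 and passed (limma adjusted p = 0.00207). Leaving out the highest WT value raises the difference by itself, so this pass is no separate support. In that same fit Gm1987 passed in the opposite direction (log2 difference -2.12, limma adjusted p = 0.000315). The value of Ccl21a is uncertain because near-identical copies of the gene share fragments. Ccl19, the other ligand of CCR7, had 5.18, 2.55, 2.68 and 2.90 FPKM in cKO replicates 1 to 4, against 3.04, 2.90, 2.05 and 5.11 FPKM in WT replicates 1 to 4. The groups overlapped for Ccl19, and WT replicate 4 was the highest WT library for both Ccl19 and Cxcl13. Relb was at 21.6 ± 3.20 FPKM in cKO and 25.03 ± 2.06 FPKM in WT and Nfkb2 at 24.9 ± 4.65 FPKM in cKO and 27.0 ± 3.61 FPKM in WT (SD, n = 4 each). Cr2, a gene of follicular dendritic and B cells, was at 0.248 to 1.305 FPKM in cKO and 0.4999 to 0.682 FPKM in WT.

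Of 10 genes of perivascular and niche stroma, in which CXCL12-rich cells are known, 8 were tested and 0 passed, also at an unadjusted p under 0.05. Ebf1, a transcription factor gene of such cells, was at 60.3 ± 3.72 FPKM in cKO and 64.9 ± 3.47 FPKM in WT, and Prrx1 at 7.88 ± 0.853 FPKM in cKO and 8.96 ± 0.194 FPKM in WT (SD, n = 4 each). Of 8 other CXC chemokine genes 4 were tested and 0 passed, also at an unadjusted p under 0.05. The neutrophil attractant Cxcl1 exceeded all 8 chemokines described here, with means of 1737 ± 145 FPKM in cKO and 1917 ± 306 FPKM in WT (SD, n = 4 each), and Cxcl2 was at 21.4 ± 6.81 FPKM in cKO and 23.2 ± 4.25 FPKM in WT.

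Across the 8 libraries, the genes whose log2 values ran most like those of the chemokines were not other chemokines. They were ranked by Pearson's r over 8 libraries among 10987 genes, a description of the same libraries in which high values are expected for the best of so many genes. For Cxcl12 they were Prkci (r = 0.969), BC004004 (0.957) and Tm9sf2 (0.954). For Cxcl10 they were Mrrf (0.941), Ercc3 (0.937) and Ift88 (0.928), and for Cxcl13 Frmd4a (0.935), Cerk (0.890) and Yme1l1 (0.889). For Cxcl14 they were Rab11a (0.968), Tsc22d2 (0.968) and Atp5b (0.966), for Cxcl16 Ormdl1 (0.956), Usp14 (0.938) and Dpagt1 (0.938), and for Cx3cl1 Fgfr1op2 (0.953), Nexn (0.951) and Ankrd54 (0.948).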

How the data were processed

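RNA of sorted stromal cells from 4 cKO and 4 WT mice was reverse transcribed with a SMART-Seq kit and made into Nextera XT libraries, as the labels' protocols say. The authors deposited 1 table of FPKM values for each library, with 24346 gene symbols. Tools in the submitters' processing notes are Cufflinks 2.2.1 with Cuffdiff, SAMtools 0.1.18, Bowtie2 2.3.5.1 and TopHat2 2.1.1, and the build is mm10. Their settings and annotation are not stated. FPKM falls for all genes when a few take a larger share of a library.

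Values were transformed to log2(FPKM + 1), which understates the change of low genes, and limma 3.58.1 (R 4.3.3) was run on the 11506 genes whose mean FPKM reached 1 (mean-variance trend, 2 groups, Benjamini-Hochberg over all genes, threshold 0.05). Genes below the minimum were read from the same fit with no filter. Permutation tests enumerated all 70 arrangements. The procedure was tested on simulated data. Whole fragments were read from the steps of low values (tolerance 0.01 fragments), and depth from 142 genes with 1 annotated transcript (median 17370649, quartiles 16118955 and 17574738 fragments at a relative depth of 1). Intervals and limits on fragments cover counting error only.

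The members and lists were chosen with earlier results of these data known. Named are all 8 members, Il10ra and Pdgfra, of each related list the 3 genes with the smallest unadjusted p, of each marker list the 3 most abundant, and the 3 genes most alike by Pearson's r. A gene named by this rule is not reported here. Irf1, Ifngr1, Adam10, Adam17, Icam1, Tap1, Cd274, Ccl19, Cr2, Ifng, Ifnb1, Epcam, Ptprc, Pecam1, the receptor genes, and Mir5098, Sectm1a, Gbp8, Tgtp2, AF357425 and Gm1987 were named after their values were seen. Alternatives were another pseudocount, other filters and scalings, no trend, array weights, a replicate block, an epithelium covariate and leaving out each library.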

Additional observations from a re-analysis of the deposited data

Results flagged for a closer look

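None of the 8 chemokine genes had a library that stood apart from the other 3 of its group by the gap test used (Dixon's, on the gap to the nearest library over the range of the group). Over 61 named genes and 122 groups, 11 values did, and chance gives about 1 in 20. In cKO replicate 1, Pdgfra was at 126.3 FPKM (162.8 to 166.9 in the other cKO libraries), Nt5e at 2.566 (1.086 to 1.312), the myeloid gene Lyz2 at 76.69 (33.88 to 38.2) and Tek at 68.96 (82.86 to 84.97). In cKO replicate 3, Stat2 was at 12.92 FPKM (14.59 to 14.82). In WT, Igtp was at 12.81 FPKM in replicate 2 (14.34 to 14.65 in the other WT libraries) and Ccl21a at 4.493 in replicate 3 (0.00033 to 0.0017). Col3a1 was at 5750 FPKM in WT replicate 1 (5458 to 5508) and Jchain, a plasma cell gene, at 53.73 (21.45 to 26.0). Tnc was at 26.81 FPKM in WT replicate 4 (38.98 to 41.23) and Plvap at 5.083 (2.959 to 3.203).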

How the results depend on the processing

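Over all 18 alternatives 0 chemokine genes were called, and the lowest adjusted p of a chemokine gene was 0.865 (Cx3cl1). Cxcl9, Cxcl13, Cxcl16 and Cx3cl1 kept their sign under every alternative run. Leaving out 1 library at a time, the log2 difference ranged from -0.070 to 0.11 for Cxcl10, from -0.012 to 0.057 for Cxcl11, from -0.11 to 0.069 for Cxcl12 and from -0.13 to 0.19 for Cxcl14, so that the sign of these 4 is not fixed. Cxcl12 was positive with the epithelium covariate (0.084), array weights (0.048), quantile normalization (0.033) and rescaling to a fixed sum (0.026). Cxcl14 was negative with array weights (-0.011) and the epithelium covariate (-0.072). The cause was not tested. Cxcl9 and Cxcl11 have no value of their own for other filters, nor Cx3cl1 for the minimum mean FPKM of 5.

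Over all genes 1 was called, Mir5098, lower in cKO, and 2 with no filter, with Sectm1a. Mir5098 was listed at 0 in all cKO libraries and at 143.9, 53.99, 45.89 and 45.76 FPKM in WT replicates 1 to 4. How many fragments these values stand for was not read, and the call may rest on few. Leaving out 1 library gave 1 to 4 calls: 4 without cKO replicate 1 (Mir5098, Igtp, Tgtp2 and Gbp8), 3 without WT replicate 3 (Mir5098, Ccl21a and Gm1987) and 2 without cKO replicate 2 (Mir5098 and AF357425). Of the related lists, 0 to 1 genes were called, namely Igtp and Ccl21a in the cases given. The replicate block left 1 call over all genes and 0 among the chemokines. The labels do not say whether same-numbered libraries share more than a number. The deviations of such libraries from their group means correlated by 0.0182 to 0.0912. For 1 of 4 numbers the best partner had the same number. Correlations over all genes cannot settle this, and a shared batch was not tested. Median shifts of all genes under other scalings were 0.032 or less on the log2 scale. Depth limits Cxcl9 and Cxcl11, where 1 fragment is worth 0.0183 to 0.0231 and 0.0358 to 0.0452 FPKM.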

Other observations

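Markers of other cell types, and of adventitial fibroblasts, are given as the summed FPKM of each list, beside the epithelial sums given above. The 14 myeloid markers, among them Lyz2, Laptm5 and Tyrobp, summed to 84.4 to 175 FPKM in cKO and 76.1 to 107 FPKM in WT, with the highest sum in cKO replicate 1. The 13 lymphoid markers found, among them Jchain, Cd52 and Cd79a, summed to 55.7 to 222 FPKM in cKO and 74.7 to 116 FPKM in WT, also highest in cKO replicate 1. The 11 blood endothelial markers summed to 93.6 to 97.6 FPKM in cKO and 95.9 to 99.6 FPKM in WT. Most of each sum came from Tek (80.2 ± 7.52 FPKM in cKO and 89.9 ± 3.19 FPKM in WT, SD, n = 4 each). The sums therefore say little of the other markers. Of the 5 markers tested, 4 had a higher mean in cKO and Tek a lower one. Plvap was at 7.07 ± 4.04 FPKM in cKO and 3.57 ± 1.01 FPKM in WT. The 7 lymphatic endothelial markers summed to 6.22 to 15.4 FPKM in cKO and 0.720 to 5.51 FPKM in WT. The most abundant was Ccl21a, which made up most of the cKO sums and of the sum in WT replicate 3. Its value is uncertain, as said above, and it was the only one of the 7 whose mean FPKM reached 1. Mmrn1 was at 0.922 ± 0.359 FPKM in cKO and 0.303 ± 0.124 FPKM in WT. Lyve1 was at 0.811 ± 0.441 FPKM in cKO and 0.450 ± 0.346 FPKM in WT. The 11 pericyte and smooth muscle markers summed to 58.9 to 100.7 FPKM in cKO and 65.4 to 75.2 FPKM in WT. The 8 markers of enteric glia and neurons summed to 5.46 to 7.00 FPKM in cKO and 5.48 to 6.50 FPKM in WT, and the 10 adventitial fibroblast markers to 4389 to 4863 FPKM in cKO and 4720.3 to 5130 FPKM in WT. In none of these lists did a gene pass in limma over all genes, where 0.00869% were called. At an unadjusted p under 0.05, the genes with higher values in cKO were 2 of 11 myeloid, 1 of 11 lymphoid, 3 of 5 blood endothelial, 1 of 1 lymphatic and 2 of 10 pericyte or smooth muscle genes tested, against 2.37% of all genes tested. Those with lower values were 4 of 10 adventitial genes and 1 of 5 blood endothelial genes, against 3.03% of all genes tested. The blood endothelial one was Tek, whose cKO values were all below the WT values, as in 1.9% of all genes tested.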
